A study of Mus musculus with 563 samples.

Results

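Genes of the interleukin 6 (IL-6) cytokine family were followed in single hematopoietic stem cells (HSCs) of young and old mice: the receptor genes Osmr, Il6ra, Il11ra1, Il27ra and Lifr, the shared receptor subunit Il6st, and Ebi3, which encodes part of a secreted cytokine. They are 7 of the 46078 genes listed in the count tables. They were chosen by their levels and shares of cells with reads in the 4 groups of these same counts, so every difference below is a description and none was tested. The cells were sorted one per well from bone marrow of Gfp-Lc3 mice, in which green fluorescent protein is fused to LC3, which coats autophagosomes. All groups carry this transgene and all cells were taken at steady state. The groups are yHSC (young mice), and oHSC_LO, oHSC_MID and oHSC_HI (old mice), called young, LO, MID and HI below. The labels give no ages beyond young and old, do not say what LO, MID and HI rank, and tie no cell to an animal.

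Most receptors of this family share gp130, the protein made from Il6st, which carries the signal into the cell. A cytokine brings gp130 together with a partner chain, such as the IL-6 receptor (Il6ra), the IL-11 receptor (Il11ra1), the oncostatin M receptor (Osmr), the leukemia inhibitory factor receptor (Lifr) or the IL-27 receptor (Il27ra), and the complex activates JAK kinases and STAT3. Ebi3 encodes a soluble subunit that joins the Il27 product to form IL-27, which binds Il27ra together with gp130, or the Il12a product to form IL-35. In HSCs, cytokines of this family are known to influence survival, quiescence and the response to inflammation.

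The upstream sequences of 3 members are shown. Ebi3 and Il6ra were lower in old cells, and Il6st, which most receptors of the family need, did not meet the size rule given below. Each is the 250 bases before the gene's start in RefSeq on GRCm38.p6, read 5′ to 3′ on the gene's strand. Capitals mark matches to the motifs searched on both strands: TTCNNNGAA (STAT), TGANTCA (AP-1), CCGGAA (ETS), TGTGGT (RUNX) and GGGCGG (GC box).
Ebi3, chr17:55952373-55952622, plus strand: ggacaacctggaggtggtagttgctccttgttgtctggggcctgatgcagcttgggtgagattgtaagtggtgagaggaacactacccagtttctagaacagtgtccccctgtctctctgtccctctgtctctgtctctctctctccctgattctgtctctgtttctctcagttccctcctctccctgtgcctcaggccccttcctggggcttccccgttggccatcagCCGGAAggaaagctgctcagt
Il6ra, chr3:89913197-89913446, minus strand: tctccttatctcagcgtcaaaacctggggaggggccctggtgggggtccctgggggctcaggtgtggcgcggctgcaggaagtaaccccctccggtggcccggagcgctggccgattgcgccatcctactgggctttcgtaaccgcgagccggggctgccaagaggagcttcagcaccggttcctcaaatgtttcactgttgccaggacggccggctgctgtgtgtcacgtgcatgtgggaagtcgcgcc
Il6st, chr13:112463820-112464069, plus strand: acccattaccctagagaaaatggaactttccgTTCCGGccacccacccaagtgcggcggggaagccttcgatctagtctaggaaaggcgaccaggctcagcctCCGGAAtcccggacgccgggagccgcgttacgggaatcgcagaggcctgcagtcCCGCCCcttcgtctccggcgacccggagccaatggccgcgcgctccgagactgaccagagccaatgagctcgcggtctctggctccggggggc

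The Ebi3 window held 1 ETS match, the Il6st window 2 ETS matches and 1 GC box, and the Il6ra window none of the 5 motifs. The motifs do not overlap each other in these windows. Over 32851 upstream windows of the same length in the RefSeq table, ETS was matched in 12.03%, the GC box in 32.7%, RUNX in 14.05%, STAT in 7.02% and AP-1 in 6.75%. Promoter entries were found for 6 of the 7 members, in 8 windows, and STAT and AP-1 were matched in 0 of these 8. A match is a run of letters, and its absence says only that the letters are not in that window. The Osmr window, which held 2 GC box matches, lies inside the first exon of the gene in GENCODE M21 and is not shown.

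The deposited files held 563 cells in 2 count tables, of which 533 passed the limits on depth and quality: 63 young, 65 LO, 68 MID and 68 HI cells in the first table, and 71, 71, 66 and 61 in the second. Kept cells had 50339 to 1064879 reads in nuclear genes, with a median per group and table from 237674 to 344265 that was highest in HI. HSC markers were present throughout: 100% of cells in each group had reads of at least 3 of 12 markers, whose summed level was 3766 to 4679 CPM (reads scaled to 1000000 reads in nuclear genes). Young cells of the second table stood apart: all 71 had 20 or more reads of Xist, a gene of the inactive X chromosome, and 0 had that many from 4 Y-linked genes summed. The other 7 sets held 0 to 4 cells of the first kind and 57 to 62 of the second, so young and old cells of the second table differ in sex-linked reads as well as age, and those of the first table do not. With no animal named, each group counts as 1 sample. Intervals are exact 95% Poisson intervals of reads or exact Clopper-Pearson intervals of shares, and they cover counting error only. Reads carry no molecular identifiers, so several reads can come from 1 molecule. The Poisson intervals can therefore be too narrow even for counting error.

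Levels are reads pooled across the cells of a group within a table, as CPM. Differences are log2 of CPM plus 1, taken within each table and averaged, with the values of the first and second table in brackets, and old averages the CPM of the 3 old groups. The size rule asks that a difference be at least 1 in size and at least 0.58 with the same sign in each table. It also asks for 20 CPM and a read in 20% of the cells in the higher group, and for no cell with over 20% of that group's reads in a table. Of 10721 genes with a mean of at least 10 CPM and a read in at least 10% of cells, 1.54% met the rule as higher in old than young cells and 0.317% as lower. Among the members, Lifr was below this level filter. Of the other 6, Osmr met the rule as higher and Ebi3 and Il6ra as lower in old cells, in the comparison for which they were picked, while Il6st, Il11ra1 and Il27ra did not meet it.

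Osmr (ENSMUSG00000022146; GRCm38 chromosome 15, 6813577 to 6874969, minus strand), the chain that pairs with gp130 to receive oncostatin M, was close to absent in young HSCs and read in a minority of old HSCs. Young cells held 9 and 4 reads in the first and second table, or 0.461 and 0.180 CPM. LO cells held 601 and 658 reads (31.5 and 32.7 CPM), MID cells 544 and 514 (28.1 and 24.3 CPM), and HI cells 605 and 508 (23.8 and 21.01 CPM). All 6 old values lay above both young values. The share of all genes whose values separate in this way was not counted, for Osmr or for the members below. The level was 0.320 CPM in young and 26.9 CPM in old cells, an 84.1-fold ratio, and the log2 difference was 4.41 (4.30 and 4.52). The value of the first table, 4.30, is the one between young and old cells with like sex-linked reads.

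The read-bearing cells were a minority in every group. In young HSCs, 2 of 63 and 4 of 71 cells had an Osmr read, and 7 of the 13 reads came from a single cell of the first table, without which the difference was 4.61. Osmr reads were present in 30 of 65 and 20 of 71 LO cells, 19 of 68 and 22 of 66 MID cells, and 24 of 68 and 18 of 61 HI cells, so the median cell had 0 CPM in all 4 groups. Among cells with a read, the lowest, median and highest values were 2.48, 69.99 and 615 CPM in LO, 1.04, 48.8 and 280 CPM in MID, and 1.91, 57.1 and 285 CPM in HI. The highest young cell had 69.3 CPM. Old cells therefore differed from young ones in how many carried Osmr reads. The 6 young cells with a read had a median of 4.71 CPM. With 13 reads among them, they are too few to compare how high such cells reached. After each cell was thinned to 100000 reads, the share with a read was 3.12% of young cells (interval 0.858% to 7.81%), 34.1% of LO (25.8% to 43.2%), 26.8% of MID (19.3% to 35.4%) and 26.02% of HI cells (18.5% to 34.7%). These intervals cover the counting of cells and not the spread between animals. The members were picked by these shares among other values.

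**Figure D1:**
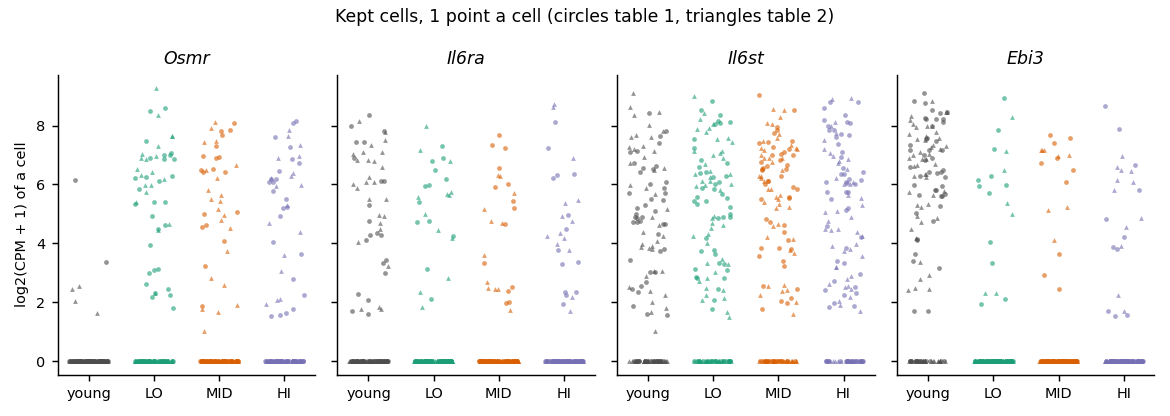
Osmr, Il6ra, Il6st and Ebi3 in single kept cells; the vertical axis is log2 of the cell's CPM plus 1, each point is 1 cell, and columns are the young, LO, MID and HI groups. Osmr reads appear in 6 young cells and in 41 to 50 cells of each old group, Ebi3 shows the opposite pattern with 96 young and 18 to 23 old cells per group, and Il6st was read in 84 to 93 cells of each group.

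Set against young cells one group at a time, Osmr differed by 4.66 (4.48 and 4.84) in LO, 4.37 (4.32 and 4.42) in MID and 4.15 (4.09 and 4.22) in HI. These 3 comparisons share the young cells. In HI, Osmr met the size rule, which 1.17% of genes met as higher and 0.709% as lower. It missed the rule in LO (1.26% higher, 0.541% lower) and MID (0.961% higher, 0.392% lower), where a single cell of the second table held 20.7% and 31.7% of the Osmr reads. Without that MID cell the difference was 4.13. In LO, leaving out single cells gave 4.50 to 4.86, and the highest value came without a young cell.

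Because Osmr is abundant in stromal and endothelial cells, markers of these types were read in the old cells that had Osmr reads and in the 266 that had none. Of old cells with an Osmr read, 0% had Lum, 2.26% Dcn, 1.504% Cdh5 and 1.504% Pdgfra, against 0.376%, 2.63%, 1.13% and 4.89% of the others. Egfl7, an endothelial gene that HSCs also express, was read in 74.4% and 75.6%, Cldn5 in 42.1% and 33.5%, and Col1a2 in 29.3% and 19.9%. Other markers went either way. Kdr was read in 27.8% and 20.7% and Flt4 in 12.03% and 8.27%. Emcn was read in 23.3% and 29.7%, Pdgfrb in 18.8% and 21.8%, Plvap in 16.5% and 19.9%, and Col1a1 in 15.8% and 18.4%. These cells were not thinned, so having a read also depends on depth. Of the lists, 1 of 12 stromal and 4 of 9 endothelial genes passed the level filter. The summed stromal list of 12 genes was at 14.6 to 23.3 CPM in young and 13.7 to 42.4 CPM in old sets, and the endothelial list of 9 genes at 190 to 191 and 197 to 441 CPM. Of the 4 endothelial genes above the filter, 2 were higher and 2 lower in old than young cells. Cldn5 met the size rule as higher, at 28.9 CPM in young and 191.8 CPM in old cells. Emcn met it as lower, at 56.3 and 20.1 CPM, so the sum does not describe the list as a whole. The part of these markers in the Osmr difference was not tested.

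Il6ra (ENSMUSG00000027947; chromosome 3, 89864059 to 89913196, minus strand), the chain that binds IL-6 itself, was lower in old HSCs, at 25.96 CPM in young and 11.45 CPM in old cells. Young cells were at 23.7 and 28.3 CPM in the first and second table, LO at 12.95 and 8.81, MID at 17.2 and 4.87, and HI at 9.06 and 15.8 CPM. All old values lay below both young values, but the order of the old groups differed between the tables. The difference was -1.12 (-0.81 and -1.44). It was -1.20 (-0.82 and -1.58) in LO and -1.05 (-1.29 and -0.80) in HI, both of which met the size rule, and -1.38 (-0.44 and -2.32) in MID, where the first table fell short of it. Only the first table sets young against old cells with like sex-linked reads. There the old against young, LO and MID differences were under 1 in size, and only that of HI was over it.

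Il6ra reads were confined to a minority of cells in young HSCs too: 21 of 63 and 27 of 71, with a highest cell of 326 CPM and a median of 50.9 CPM among cells with a read. In LO, MID and HI cells, 26, 26 and 28 had a read, at medians of 47.9, 25.6 and 20.6 CPM. The thinned share was 32.03% in young (24.1% to 40.9%), 15.4% in LO (9.56% to 23.1%), 17.3% in MID (11.2% to 25.04%) and 18.7% in HI cells (12.2% to 26.7%), so the intervals of MID and HI overlap that of young cells. Without the young cell of the first table with the most reads, number 62, the old against young difference was -0.99, under the bound of 1, and the gene no longer met the rule. In the annotation Il6ra shares 242 exon bases with Gm42809 on the opposite strand, which had 9 reads in young and 2 to 8 in each old group. Whether the counting used strand is not given in the sources used here.

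Il11ra1 (ENSMUSG00000073889; chromosome 4, 41699989 to 41769474, plus strand), the IL-11 receptor chain, was the most widely read member. Its level was 101.1 and 109.5 CPM in young, 76.9 and 89.6 in LO, 93.3 and 116.009 in MID and 94.9 and 93.8 in HI cells. The LO and HI values lay below both young values, and the MID values on either side of them. The difference was -0.16 (-0.19 and -0.13). Thinned shares were 76.6%, 78.05%, 74.8% and 81.3% in young, LO, MID and HI. The near-identical copies listed as Il11ra2 had 0 to 1 reads per group over 3 entries, and Gm13305 had 15 to 37. How reads matching several copies were shared is not given in the sources used here, so the level of Il11ra1 is uncertain.

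Il27ra (ENSMUSG00000005465; chromosome 8, 84030294 to 84042589, minus strand), the IL-27 receptor chain, was at 72.1 and 70.8 CPM in young cells. It was at 114.8 and 103.2 CPM in LO, 88.9 and 115.016 in MID and 114.6 and 89.3 in HI cells. Every old value was above both young ones, an order that was not counted over all genes. The difference of 0.54 (0.55 and 0.53) was alike in the tables but under the bound of the size rule. The thinned share was 54.7% in young (45.7% to 63.5%), against 69.9% for LO, 73.2% for MID (64.6% to 80.7%) and 69.1% for HI. Lowest, median and highest cell were 0, 10.2 and 490 CPM in young, 0, 40.7 and 598 in LO, 0, 38.004 and 521 in MID and 0, 57.99 and 933 in HI.

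Lifr (ENSMUSG00000054263; chromosome 15, 7090614 to 7197489, plus strand), the leukemia inhibitory factor receptor, lies 215644 bases from Osmr and was near the limit of detection. Young cells held 9 and 18 reads, LO 18 and 12, MID 68 and 9, and HI 82 and 10, with a highest level of 3.52 CPM. In the first table, a single MID cell held 76.5% and a single HI cell 71.95% of the reads of its group. Without these cells, the differences of MID and HI from young fell from 0.64 to -0.01 and from 0.59 to 0.02. Thinned shares of 6.25%, 8.94%, 7.09% and 4.88% had overlapping intervals, and the reads were too few at this depth to describe a difference in Lifr.

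Il6st (ENSMUSG00000021756; chromosome 13, 112464070 to 112510086, plus strand), the gene of the shared subunit gp130, was at 39.3 and 52.7 CPM in young, 62.8 and 64.2 in LO, 62.4 and 68.9 in MID, and 70.5 and 48.5 in HI cells. The HI value of the second table lay between the young values, so the groups overlap. Old cells were higher by 0.46 (0.72 and 0.20) on the log2 scale. Thinned shares ran from 53.9% in young (44.9% to 62.8%) over 56.9% in LO and 59.3% in HI to 64.6% in MID (55.6% to 72.8%), and these intervals overlap. In the median cell the level was 7.24 CPM for young, 11.8 for LO, 23.2 for MID and 14.05 for HI, and the highest cell of each group 486 to 547 CPM.

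Ebi3 (ENSMUSG00000003206; chromosome 17, 55952640 to 55957022, plus strand), the cytokine subunit, ran opposite to Osmr. Young HSCs were at 104.5 and 85.5 CPM in the first and second table, LO at 18.5 and 8.36, MID at 17.7 and 11.5, and HI at 10.9 and 9.51 CPM. The highest old value lay far below the lower young one. The level was 95.02 CPM in young and 12.7 CPM in old cells, 7.45-fold apart, and the difference was -2.83 (-2.66 and -3.002). It was -2.82 (-2.44 and -3.21) in LO, -2.64 (-2.50 and -2.79) in MID and -3.10 (-3.15 and -3.04) in HI, and Ebi3 met the size rule as lower in all 3.

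Most young HSCs carried Ebi3 reads and few old ones did. The thinned share was 67.2% in young (58.3% to 75.2%), against 11.4% in LO (6.36% to 18.4%), 12.6% in MID (7.38% to 19.7%) and 14.6% in HI (8.91% to 22.1%). The old cells that did carry reads were not all low: their medians were 60.004, 111.4 and 27.7 CPM in LO, MID and HI, beside 100.9 CPM in young cells with a read, and the highest LO cell had 485 CPM beside 554 CPM in the highest young cell. Single cells held much of the old signal, with 52.4% of the LO reads of the second table in 1 cell and 47.5% of the HI reads of the first table in another, and without them the differences were -3.27 and -3.50. Ebi3 shares 270 exon bases with the antisense gene Gm16712, which was also lower in old cells, at 12.2 CPM in young and 1.23, 2.50 and 1.84 CPM in LO, MID and HI, a difference of -2.27 (-1.30 and -3.24). Without knowing whether strand was used, reads of this pair in the shared bases cannot be told apart.

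**Figure D2:**
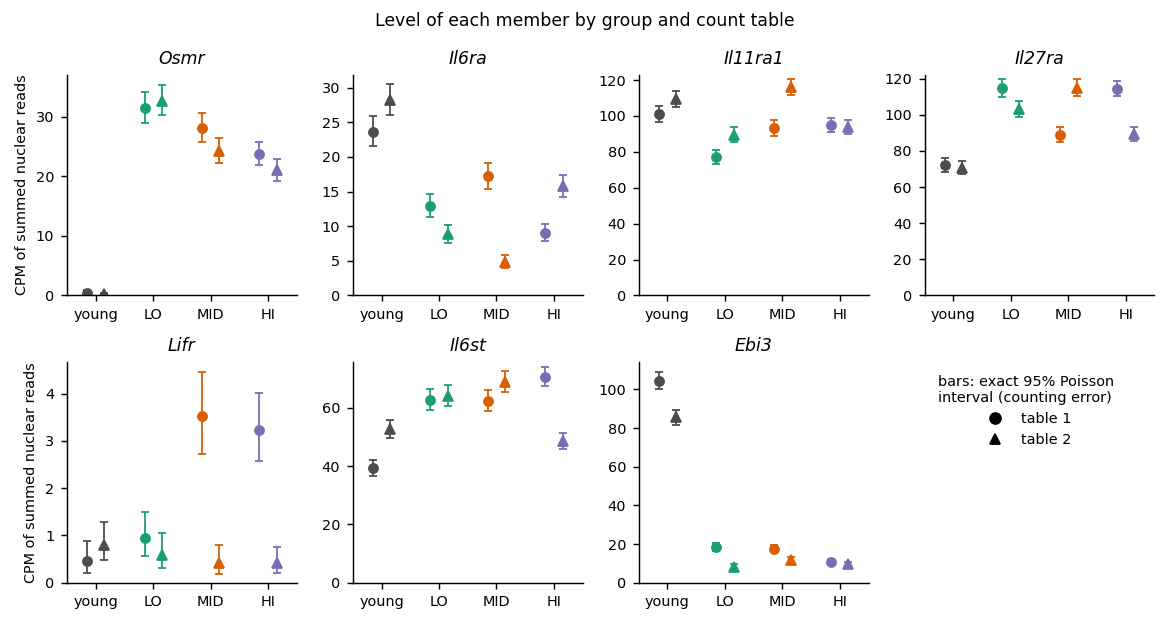
Level of the 7 members in CPM (vertical axes, each from 0) in young, LO, MID and HI cells, with circles for the first table, triangles for the second table and bars for exact 95% Poisson intervals of the reads. Osmr is at most 0.461 CPM in young and at least 21.01 CPM in all old sets, and Ebi3 is at least 85.5 CPM in young and at most 18.5 CPM in all old sets. The MID values of Il6ra are 17.2 and 4.87 CPM, with 25.2% and 38.8% of these reads in a single cell, a spread that the bars do not cover.

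Per kilobase of exon, the order of levels in young cells was Ebi3 at 82.3 CPM, Il11ra1 at 23.6, Il27ra at 20.4, Il6st at 4.15, Il6ra at 3.004, Lifr at 0.059 and Osmr at 0.026. Il11ra1 (22.6 and 24.5 in the tables) and Il27ra (20.6 and 20.3) were neighbours in young cells whose table values did not overlap. In LO cells Il27ra came first at 31.2, then Il11ra1 at 18.6, Ebi3 at 11.6, Il6st at 5.72, Osmr at 2.65, Il6ra at 1.26 and Lifr at 0.072. Osmr thus moved from the lowest place to one above Il6ra. The order was the same in MID and HI, and Osmr and Il6ra stood closest in HI, at 1.85 and 1.44 CPM per kilobase, where their table values overlap. The MID table values of Il27ra (25.4 and 32.9) and Il11ra1 (20.9 and 25.9) overlap as well.

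**Figure D3:**
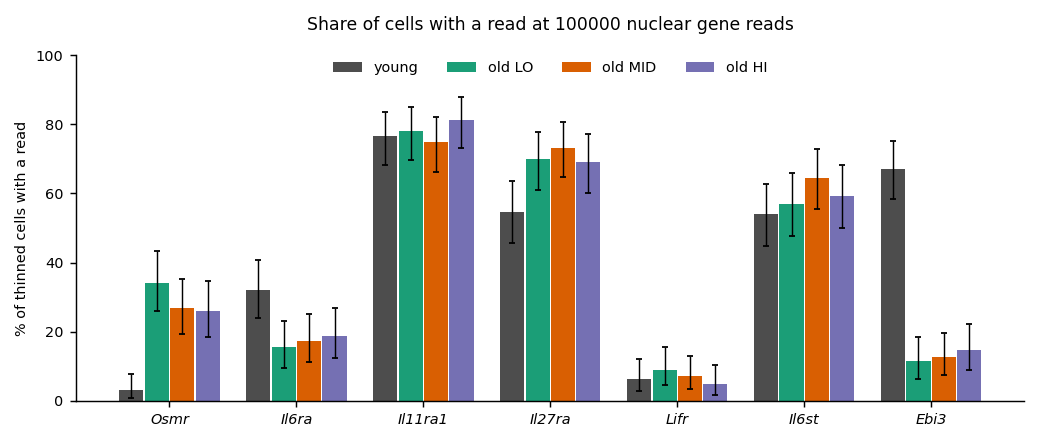
Share of cells with at least 1 read of each member after thinning to 100000 nuclear gene reads, in percent, for young, LO, MID and HI cells, with exact 95% Clopper-Pearson intervals. Osmr goes from 3.12% in young to between 26.02% and 34.1% in old groups, and Ebi3 from 67.2% to between 11.4% and 14.6%.

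Cells with reads of both chains of a receptor were counted. Reads of Osmr together with Il6st were found in 1.56% of young, 19.5% of LO, 22.8% of MID and 11.4% of HI cells. The product of the 2 separate shares, taken within each table, was 1.69%, 19.5%, 17.3% and 15.5%, each inside the interval of the observed share. In MID, 85.3% of cells with Osmr also had Il6st, against 56.99% of the other cells, and in HI the order was the other way, at 43.8% against 64.8%. Without thinning, the HI share of the pair was 20.2%. Il6ra together with Il6st went from 17.2% of young cells (11.1% to 24.9%) to 9.76%, 11.8% and 8.94% of LO, MID and HI cells, with overlapping intervals. The HI share depended on depth, at 17.8% without thinning and 19.6% at 200000 reads, beside 23.9% and 21.9% in young cells. Il11ra1 with Il6st (39.1%, 47.97%, 51.97% and 45.5%) and Il27ra with Il6st (30.5%, 40.7%, 47.2% and 40.7%) were the commonest pairs of receptor genes with Il6st in every group. Ebi3 with Il6st was read in 38.3% of young cells and 4.07%, 10.2% and 8.94% of those in LO, MID and HI.

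On the ligand side, Ebi3 with its receptor gene Il27ra was read in 39.8% of young cells, against 10.6%, 11.02% and 10.6% in LO, MID and HI, near the products of 36.96%, 8.17%, 9.23% and 9.91%. Osmr and Ebi3 were seldom read in the same cell, in 2.34% of young and 3.25%, 5.51% and 3.25% of LO, MID and HI cells, beside products of 2.11%, 4.19%, 3.37% and 3.84%. This last pair was chosen after its values were seen. Counting all 6 receptor genes, the median cell had reads of 2 in young and of 3 in each old group, and 4.69% of young and 2.44%, 2.36% and 0.813% of LO, MID and HI cells had none. Il6st with any partner chain was read in 52.3%, 55.3%, 62.2% and 55.3%.

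**Figure D4:**
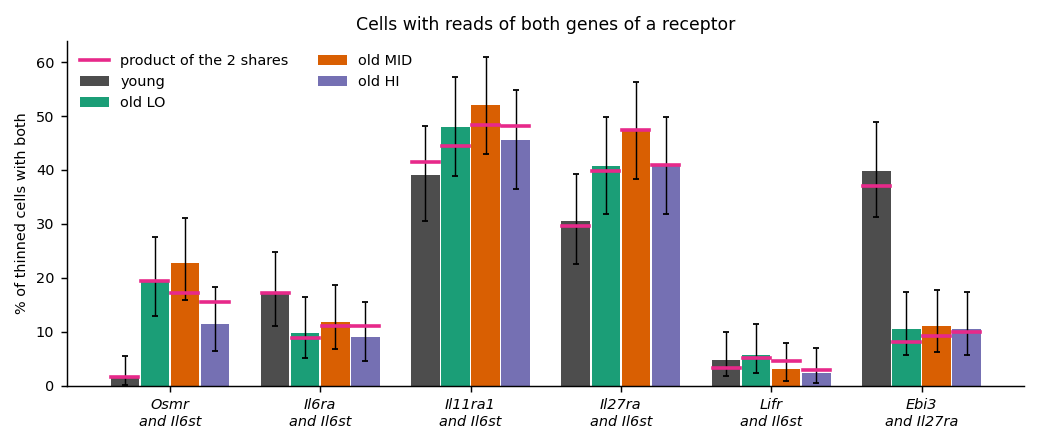
Percent of thinned cells with reads of both genes of a pair, for young, LO, MID and HI cells, with exact 95% intervals; the pink line is the product of the 2 separate shares within tables. Osmr with Il6st goes from 1.56% in young to 11.4% to 22.8% in old groups, Ebi3 with Il27ra from 39.8% to between 10.6% and 11.02%, and the products of these pairs lie inside their intervals.

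HI and LO are both groups of old cells. None of the 7 members met the size rule between them, where 1.59% of genes met it as higher in HI and 0.382% as lower. Osmr differed by -0.50 (-0.39 and -0.62), Il27ra by -0.10 and Il11ra1 by 0.18 (0.30 and 0.07). Il6st was at -0.12 (0.17 and -0.40), Ebi3 at -0.27 (-0.72 and 0.17) and Il6ra at 0.15 (-0.47 and 0.78), with opposite signs in the tables. Without 1 LO cell of the second table the Ebi3 difference was 0.17, and without 1 HI cell of the second table that of Il6ra was -0.09. Without another LO cell of the second table, the Osmr difference was -0.35. HI cells more often had reads of 8 or more G2 and M phase genes than LO cells, at 19 of 68 and 33 of 61. LO had 7 of 65 and 9 of 71, MID 10 of 68 and 12 of 66, and young 17 of 63 and 26 of 71. HI and young cells were thus close in the first table, and the median difference of these genes between them was 0.63 (0.16 and 0.98). These cells were not thinned for this count, and HI cells were the deepest. Without the cells with 8 or more such genes, Osmr differed by -0.71 between HI and LO. The old against young differences were then 4.38 for Osmr, -2.91 for Ebi3 and -1.41 for Il6ra. Il6ra in old against young cells, and Osmr (3.98) and Il6ra (-1.35) in HI against young, then no longer met the size rule.

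The rest of the pathway was described with lists of named genes, each chosen with earlier results of these data known, and beside a median difference of 0.02 over all genes above the level filter. Of 14 ligand genes, 3 passed the filter and 0 met the size rule in old against young cells: Il12a at 0.66, Ctf1 (cardiotrophin) at 0.37 and Clcf1 at -0.45. Il27, the partner of Ebi3 in IL-27, stayed at low levels of 4.49 CPM in young and 8.35, 10.1 and 3.54 CPM in LO, MID and HI. Osm, the ligand of Osmr, was at 5.10, 9.83, 5.25 and 12.3 CPM. Il6 had 0 CPM in young, LO and MID cells and 0.24 CPM in HI. Of 8 related receptor genes, 7 were matched, 2 passed the filter and 0 met the rule, Csf3r (the granulocyte colony-stimulating factor receptor) at 0.68 and Il12rb1 at -0.07.

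Downstream of the receptors, all 11 JAK and STAT genes passed the filter and 0 met the rule, with a median of -0.06. Stat3, the main effector of gp130, was at 177 CPM in young and 239 CPM in old cells, a difference of 0.43, and Stat5a at 0.18, while Stat5b was at -0.40 and Stat2 at -0.36. Inhibitors of receptor signaling held calls in both directions. All 19 passed the filter with a median of -0.16, 1 met the rule as higher and 1 as lower. Socs3, the feedback inhibitor that binds gp130, was at 9.52 and 23.3 CPM in young cells, whereas it was at 92.04 and 134.6 in LO, 77.3 and 63.6 in MID and 57.6 and 47.4 in HI, a difference of 2.32, though it met the rule in MID and not in LO or HI taken alone. Socs2, an inhibitor of growth hormone and related receptors, was at 48.6 CPM in young and 13.3 CPM in old cells, a difference of -1.80. Socs6 at 0.47 and Sh2b3 at -0.60 did not meet the rule.

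Cells with reads of both Osmr and Socs3 were also counted, a pair chosen after its values were seen. Both were read in 0% of young, 11.4% of LO, 11.8% of MID and 15.4% of HI cells, beside products of 0.63%, 14.3%, 12.9% and 12.04%. For young cells, the exact interval of 0% reaches 2.84%. Between HI and LO, Socs1 (-1.17) and Cish (-1.33), both feedback inhibitors of JAK and STAT signaling, met the rule as lower in HI.

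Of 30 genes listed as STAT3 targets, 25 passed the filter with a median of 0.31 (0.34 and 0.05 in the tables), and 1 met the rule. For HI against young cells the median was -0.02 (0.14 and -0.37), with 12 genes higher and 13 lower. Pim2, a survival kinase, was at 106.9 CPM in young and 239.9 CPM in old cells, a difference of 1.19, and met the rule as higher in LO, MID and HI alike. Cebpd at 1.24 did not meet it, nor did Icam1 at -0.78 or Fos at -0.56, although Fos met it as lower in HI against young cells at -1.33. Of 14 adaptor genes, 12 passed with a median of 0.01 and 0 met the rule: Sos1 was at 0.63, Sos2 at 0.22, Gab1 at -0.64 and Gab2 at -0.94, and Gab2 met the rule as lower in LO at -1.19. All 8 genes of receptor handling passed and 0 met the rule, with Calr at 0.57, Bace1 at 0.41, Snx27 at -0.18 and Rhbdf1 at -1.05.

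Other cytokine receptors of HSCs gave a point of reference for the receptor members. Of 24, 18 passed the filter, with a median of -0.13, and 0 met the rule in old against young cells. Il10ra was at 1.90 and Il1r1, the IL-1 receptor, at 1.32, the latter meeting the rule as higher in HI alone of the 3 groups at 1.54. Csf2rb was at -1.94 and Flt3, a receptor of multipotent progenitors, at -0.93. Of 8 multipotent progenitor markers, 4 passed the filter, all of them lower in old cells, with a median of -0.97. Among these, 1 met the rule, Cd34, at -1.08. Cd27, the most abundant, was at -0.15 (0.20 and -0.51). The list had a summed level of 728 and 825 CPM in young and 433 to 616 CPM in old sets. Cells with reads of 3 or more such markers made up 50.8% of young and 26.02% to 34.96% of old cells. Megakaryocyte and platelet markers summed to 414 and 462 CPM in young and 606 to 945 CPM in old sets. Of these 9, 7 passed the filter, all of them higher in old cells, with a median of 0.80. Among these, 1 met the rule, Itgb3, at 65.7 CPM in young and 348 CPM in old cells. Rgs18 and Gp9 were at 0.07 and 0.11. The part of either list in the members' differences was not tested.

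**Figure D5:**
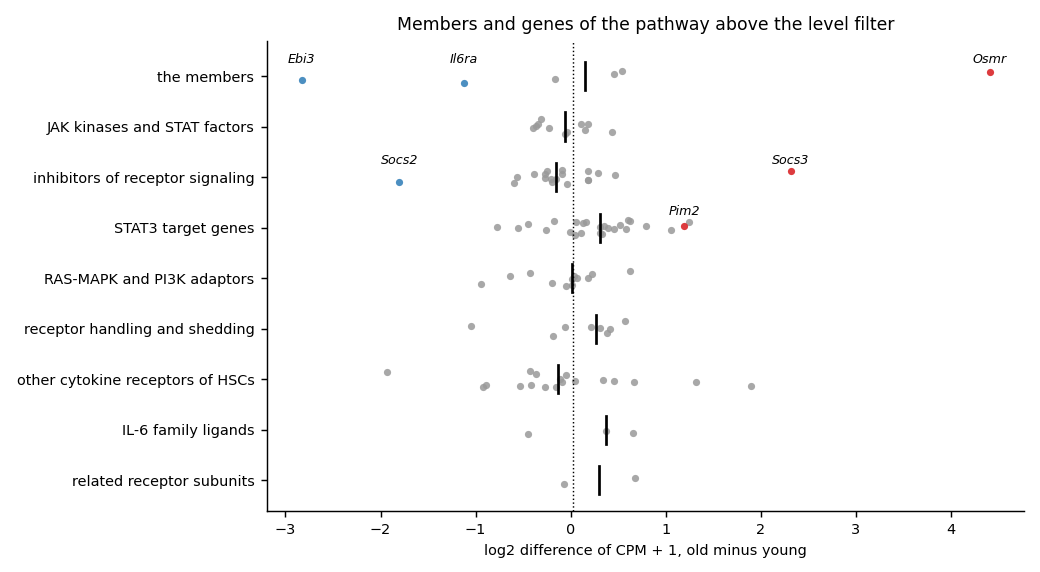
Difference of log2 CPM plus 1 between old and young cells (horizontal axis) for the 6 members and the pathway genes above the level filter, 1 point a gene, with red for higher and blue for lower by the size rule, a black bar for each list's median and a dotted line at 0.02, the median of all genes. Osmr, Ebi3, Socs3 and Socs2 lie farthest from the line among the coloured points, and the JAK and STAT genes all lie between -0.40 and 0.43.

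Over the 8 sums of group and table, the protein-coding genes whose log2 level was most like that of Osmr were Sbspon (Pearson r 0.999), Matn4 (0.995) and Clca3a1 (0.993), all of them higher in old cells by the size rule. Those most like Ebi3 were Irf9 (0.975), Rnase6 (0.973) and Sox4 (0.964), of which Rnase6 met it as lower. For Il6ra they were Spata6 (0.947), Trappc11 (0.942) and Zfp426 (0.932), for Il27ra Zscan18 (0.958), Ddx10 (0.946) and Mef2c (0.945), for Il6st Izumo4 (0.965), Mbp (0.953) and Smagp (0.948), and for Il11ra1 Bcl10 (0.984), Mrpl22 (0.954) and Cd320 (0.946). With 2 young and 6 old sums from the same tables, these values mostly rank how alike genes separate young from old, and they are descriptions over 8 points.

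Neighbouring genes were read for the same comparison. Within 1000000 bases of Osmr, 3 other genes passed the level filter and 0 of them met the rule. Rictor, 13176 bases away, was at 0.01, Fyb, 150264 bases away, at 0.995, just under the bound and named after its value was seen, and Wdr70 on the other side, near the edge of the interval, at -0.22. Around Lifr, Osmr was 1 of 6 and the only gene that met it. Within the same distance of Ebi3, 0 of 27 met it: Yju2, 2077 bases away, was at 0.28 and Zfp959, 53712 bases away on the other side, at 0.34, and the 27 ranged from -1.15 to 0.60.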

How the data were processed

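The authors deposited 2 tables of read counts per gene and cell, made by modified Smart-seq2 without molecular identifiers. The submitters' processing notes name STAR 2.7.3a, Subread, featureCounts 2.0.0, DESeq2 and mm10. Whether strand was used is not given in the sources used here. Rows naming no gene, with 34.8% and 31.5% of reads as no feature, stayed out of totals. Cells with under 50000 nuclear gene reads, under 1000 genes or over 20% mitochondrial reads were left out, 30 of 563. No doublet caller was run, as cells were sorted singly. Reads were summed per group and table and scaled by TMM (edgeR 4.0.16, R 4.3.3). Shares used 501 cells thinned to 100000 reads, and 32 shallower cells were left out. No animal is named, so each group is 1 sample and no test was possible. The calculations were tested on simulated data. The members and lists were chosen with earlier results of these data known. Genes named were the members, pathway genes meeting the size rule in any comparison, and the 2 highest and 2 lowest of each list in old against young cells. The 3 most correlated protein-coding genes were named for each member above the level filter, and the nearest such genes beside Osmr, Lifr and Ebi3. Genes and exon lengths came from GENCODE M21 (45229 of 46078 matched). Alternatives covered normalization, level filter, pseudocount, tables, thinning, cycling cells and cells with other markers.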

Additional observations from a re-analysis of the deposited data

Results flagged for a closer look

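Il6ra differed in sign between the tables when HI was set against LO, at -0.47 in the first table and 0.776 in the second table. A single HI cell held 30.6% of the HI reads of the second table and a single LO cell 27.1% of the LO reads of the second table. Lifr differed in sign for MID against young, at 1.63 in the first table and -0.34 in the second table, and for HI against young, at 1.53 and -0.35. Single cells of the first table held 76.5% of the MID and 71.95% of the HI reads of Lifr. The difference between the tables was not tested in any of these cases.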

How the results depend on the processing

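No paired analysis was possible because the labels tie no cell to an animal and no test was made. Genes higher in old cells by the size rule were 1.54% of those tested, and 0.970% with a pseudocount of 10, 2.47% in the first table alone, 2.74% in the second alone, 1.26% (66 genes) with the stricter level filter, which tests fewer genes, and 0.0192% without cells carrying markers of other types. Lower genes were 0.317%, and 0.196%, 0.737%, 1.04%, 0.209% and 0.0288% under the same settings, and 0.634% with the single-cell limit taken over both tables, a setting chosen after seeing the data. With no level filter the counts were 165 and 35 genes. Without cells carrying other markers, which removes 46 and 58 young and 56 to 68 old cells per set, Osmr was at 5.12 and Ebi3 at -4.85, and neither met the rule any longer. The young cells left then held 0 Osmr reads, as did the HI cells, of which 66 and 56 of 68 and 61 were removed, so that Osmr in HI against young was at 0.00 and in HI against LO at -3.59. Osmr in old against young ran from 1.84, with a pseudocount of 10, to 6.09 over all alternatives. Il6ra in old against young cells kept its direction but no longer met the rule in 6 of 14 alternatives. It missed the rule at -0.75 with a pseudocount of 10, -0.81 in the first table alone and -1.41 without cycling cells. It also missed it at -1.28 without cells carrying other markers and -1.08 without cells carrying rarer markers, a setting chosen after seeing the data. Leaving out single cells gave -1.23 to -0.99 for Il6ra. The cause was not tested. No called difference reversed under any alternative run. Differences that missed the rule did change sign in places. Without cells carrying other markers, Il27ra in MID against young went from 0.50 to -0.93. Il6st in HI against young went from 0.35 to -2.34, and Il11ra1 in old against young from -0.16 to 0.12. In old against young cells, Il27ra ran from 0.49 to 0.82 and Il6st from 0.20 to 0.72 over all alternatives. Of the shares of cells, 14 of 60 moved outside their interval without thinning, 18 of 60 at 200000 reads, 3 of 28 at 50000 reads and 26 of 28 when 5 reads were asked for. Depth limits Lifr and young Osmr, with 27 and 13 reads.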
